A study of Rattus norvegicus with 12 samples.

Results

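Complement is a set of plasma and membrane proteins, described here through 25 rat genes for its components, receptors and regulators in kidneys injured by ischemia-reperfusion, in which blood flow is stopped and then restored. Of 32 listed symbols, 25 had a row of their own on the array, and each of these had exactly 1 row. The other 7 were C2, C5ar1, C5ar2, Cfi and Cd59, without a row annotated to them alone, and C4a and C4b, which share 1 row that was not used. These 25 stand among 18166 genes tested.

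The rats had been treated with anti-miR-182, which is directed against 1 microRNA, or with placebo, and kidney RNA was measured on 12 arrays, 3 in each of 4 groups. The groups were anti-miR-182 at day 7 after injury, placebo at day 7, anti-miR-182 at day 2 and placebo at day 2. All groups were injured, no uninjured kidney is among the samples used here, and the labels state neither strain nor age nor dose. Titles carry 12 different animal codes, so p-values measure the spread between animals. A description label speaks of a zero-hour biopsy, and groups follow the titles. Replicates 1 to 3 are only names given in accession order.

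Complement is started by the classical route (C1q bound to antibody or to dying cells), by the lectin route (mannose-binding lectins on sugars) or by the alternative route on a bare surface. All 3 routes meet at C3, whose fragments coat targets and draw leukocytes, and end in the terminal components that build a pore in membranes. Most soluble components come from the liver, but injured tubules are known to make C3 locally, macrophages make C1q and properdin, and regulators on host cells hold the cascade back. In mouse kidneys after ischemia the alternative route is the one best known for harm.

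The inhibitor is directed at the mature microRNA, shown because it is what the treatment was designed against, with its seed (bases 2 to 8) in capitals, from RefSeq on GRCr8 (chr4:59752249-59752273, minus strand).
rno-miR-182: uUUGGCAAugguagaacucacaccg

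The row named Mir182 had log2 signals of 5.63, 6.0 and 4.93 in anti-miR-182 kidneys and 4.32, 3.97 and 4.75 in placebo kidneys at day 7. Day 2 gave 6.42, 6.21 and 6.57 under anti-miR-182 and 4.84, 4.48 and 4.69 under placebo, so the arms did not overlap on either day and the row was higher, not lower, under the inhibitor. The labels do not say whether it reads the precursor or the mature form. Umod (11.19 to 11.95) and Slc34a1 (9.28 to 10.47), markers of the thick limb and proximal tubule, were bright on all 12 arrays, and the endothelial marker Pecam1 has no row here. On the second principal component (10.2% of variance) anti-miR-182 day 2 replicate 3 lay at -29.41, and the other arrays between -9.18 and 15.38. Placebo day 7 replicate 2 stood apart in macrophage and fibroblast markers, given below. Several complement differences that these 2 arrays move by over 1.5 times are also given without them. Marker counts and marker differences use all 12 arrays.

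Among the 25 genes, some differed between the days and none between treatments past the threshold, a Benjamini-Hochberg adjusted p under 0.05 in limma over all 18166 genes. Between anti-miR-182 and placebo 0 of 25 passed at day 7 (0% of all genes) and 0 at day 2 (0% of all genes). In the mean of both days 0 passed (0.0055% of all genes, the single gene Mir182), and in the difference between the days 0 (0% of all genes). The Mir182 call ended in 4 of 12 fits with 1 array left out (adjusted p = 0.055 to 0.0706 in limma). It also ended without both arrays that stand apart (0.164). At an unadjusted p under 0.05 stood 3 members at day 7 (C6, Cfd and C1r, all lower), 3 at day 2 (Mbl1, C1s and Cd46, all higher), 1 in the mean (C1r) and 2 in the difference (C1s and C6). Over all genes that looser criterion was met by 593 at day 7, 1201 at day 2, 957 in the mean and 713 in the difference. The 3 arrays of each arm did not overlap for 2 of 25 members at day 7, C1r and C8a, both lower under anti-miR-182, against 7.26% of all genes. At day 2 C3 alone was so separated, lower under anti-miR-182, against 12.3% of all genes. The median log2 difference of the members was -0.08 at day 7 and 0.09 at day 2, and that of all genes -0.00 and 0.03.

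**Figure D1:**
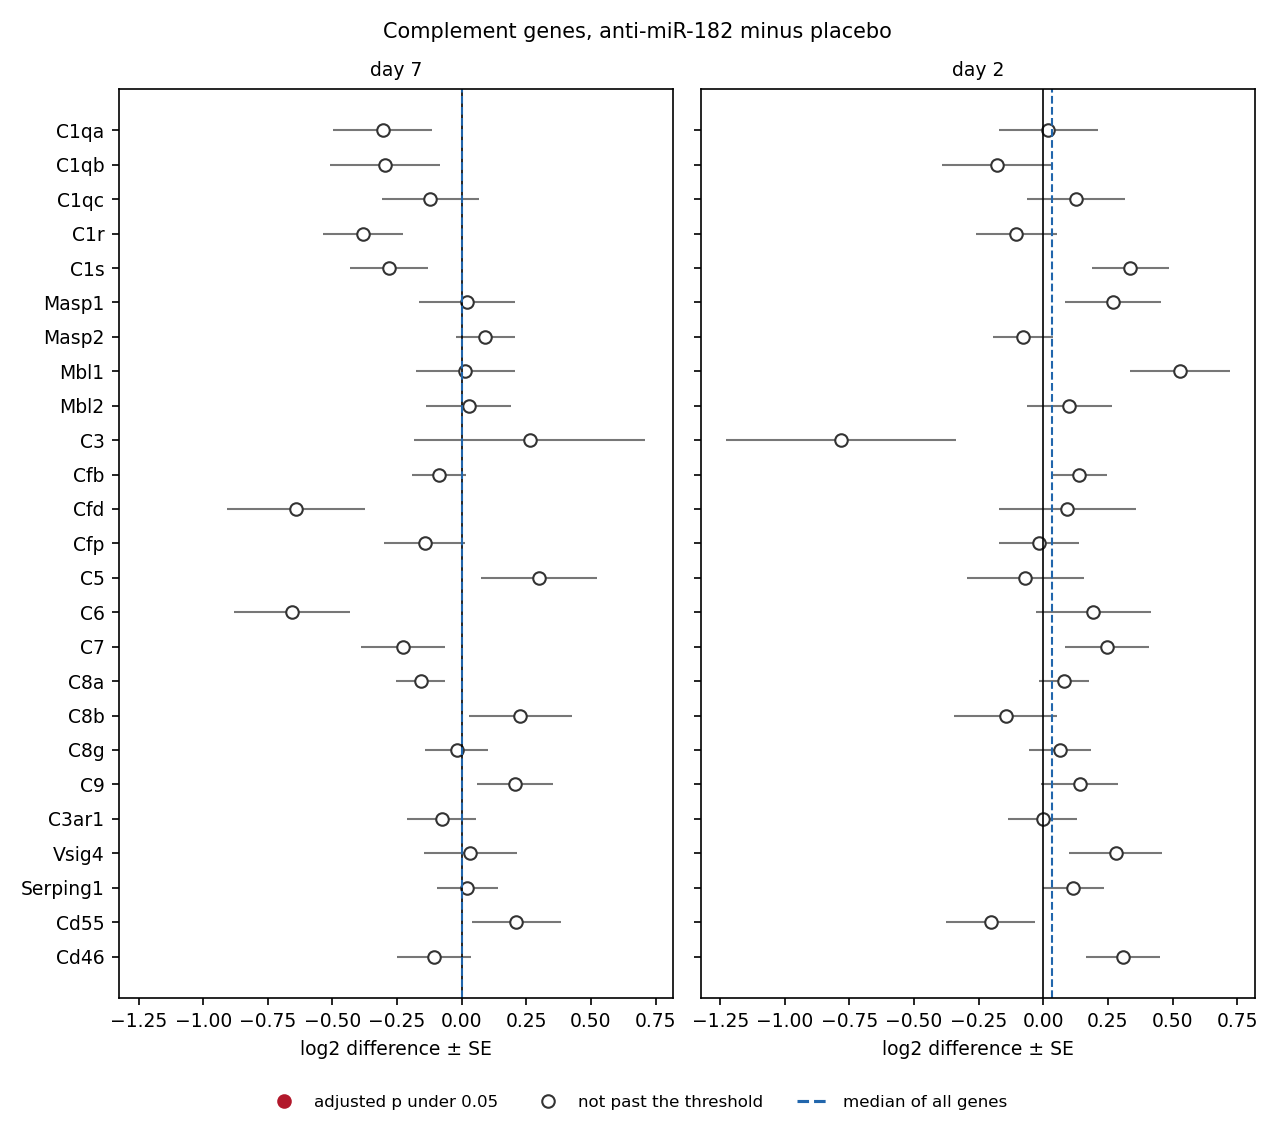
Log2 difference, anti-miR-182 minus placebo, of 25 complement genes at day 7 (left) and day 2 (right), as points with SE bars; the dashed line is the median of all genes. All points are open, since 0 of 25 passed; C6 (-0.66) and Cfd (-0.64) lie farthest down at day 7 and C3 (-0.78) at day 2.

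From day 2 to day 7, 9 of 25 members passed under anti-miR-182 and 12 of 25 in placebo, against 27.5% and 28% of all genes. Under anti-miR-182 C3, Vsig4 and Serping1 rose (2.68% of all genes rose) and Masp2, Mbl1, C6, C8a, C8b and C9 fell (24.9% of all genes fell). In placebo C1qa, C1qc, C1s, Cfp, Vsig4, Serping1 and Cd46 rose (4.22% of all genes) and Masp2, C8a, C8b, C9 and Cd55 fell (23.7% of all genes). The 3 arrays of each day did not overlap for 13 of 25 members in either arm, against 40.4% of all genes under anti-miR-182 and 48.3% in placebo. The arms share no arrays, and the difference between them passed for 0 members, so a call in 1 arm alone is not shown to differ from the other. In whole kidney, fewer cells of a type and less RNA per cell cannot be told apart.

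The days may have been normalized in separate runs, so day and run cannot be told apart. Over all genes the median day 7 minus day 2 difference was -0.21 under anti-miR-182 and -0.18 in placebo, and the members' medians were -0.10 and 0.16. Rises therefore stand against a background that moved down, and falls with it. Quantile normalization turned the share of rises among all calls to 48.6% under anti-miR-182 and 50.7% in placebo, and array centring to 45.6% and 45.8%, against 9.74% and 15.1% in the deposited values. Under those scalings members numbered 6 rises and 3 falls (quantile) or 5 and 3 (centred) under anti-miR-182, and 9 and 4 or 9 and 3 in placebo, and none of the calls changed direction. Of all genes 7.22% rose and 7.62% fell (quantile) or 6.23% and 7.44% (centred) under anti-miR-182, and 8.14% and 7.9% or 8.15% and 9.62% in placebo. Leaving out 1 array reduced the 9 calls to 5 without anti-miR-182 day 7 replicate 3, and the 12 placebo calls to 6 without placebo day 2 replicate 1 and 7 without replicate 2. Without both arrays that stand apart 8 passed in each arm.

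**Figure D2:**
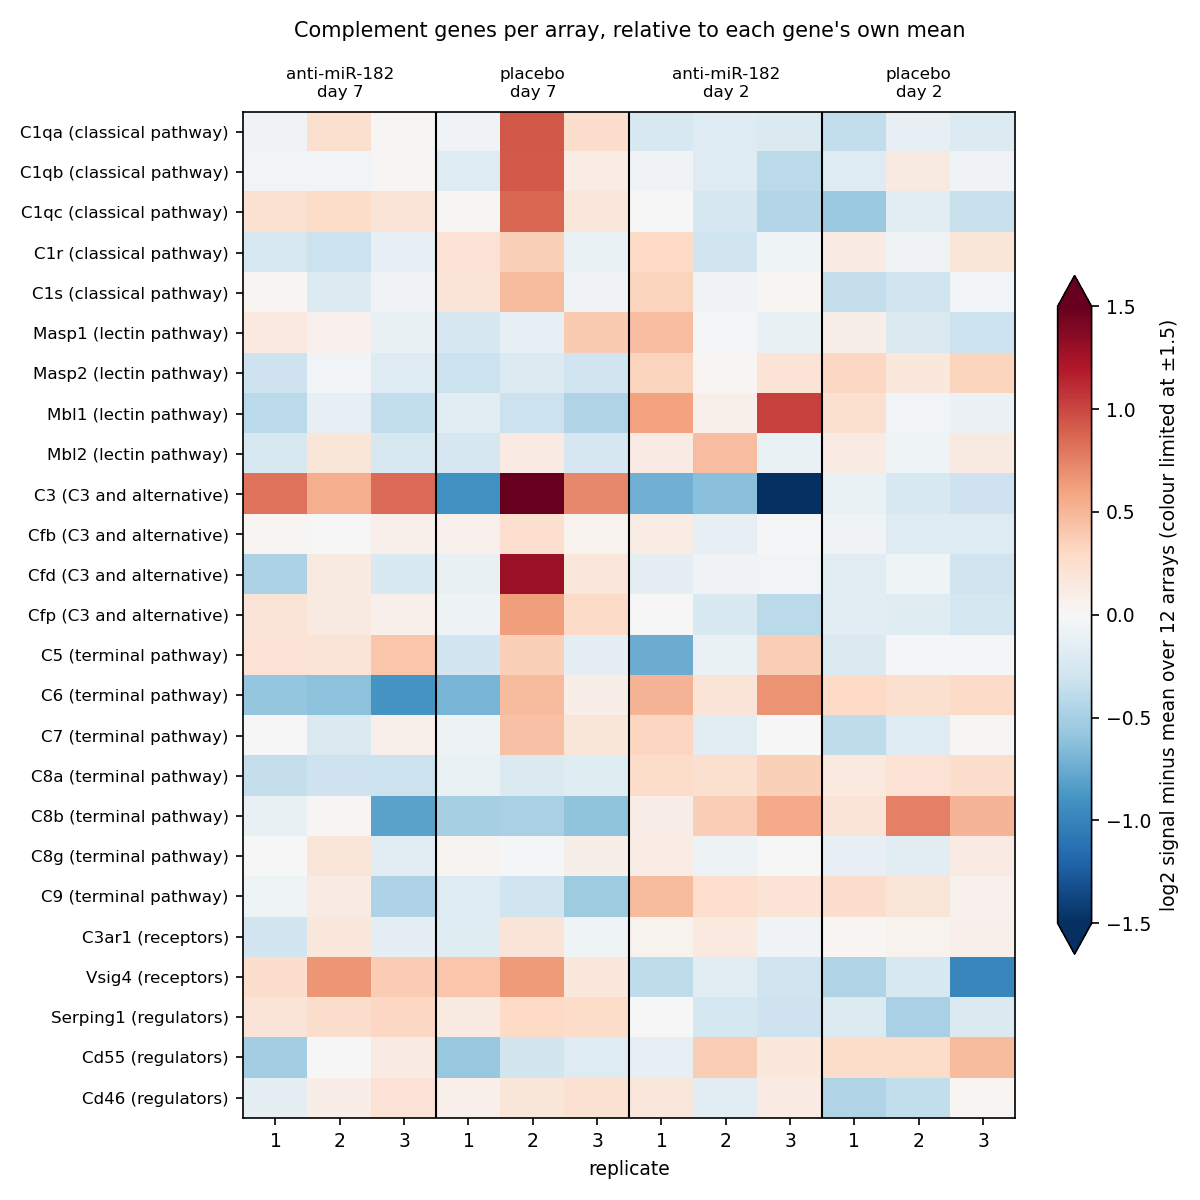
Log2 signal of 25 complement genes (rows, by role) on 12 arrays (columns, by group and replicate), minus each gene's mean over the arrays; red is above and blue below that mean. Vsig4 and Serping1 are red on all 6 day 7 arrays, C8a is blue on all 6, and placebo day 7 replicate 2 is reddest for C1qa, C1qb, C1qc, C3 and Cfd.

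The classical route was represented by 5 of 8 listed genes: the 3 chains of C1q, the recognition molecule, and the proteases C1r and C1s that it switches on. In placebo C1qa, C1qc and C1s were higher at day 7 than at day 2, while under anti-miR-182 0 of 5 passed. At day 7 C1qa had log2 signals of 7.23, 7.52 and 7.30 in anti-miR-182 kidneys and 7.22, 8.21 and 7.54 in placebo kidneys. At day 2 C1qa had 7.04, 7.08 and 7.06 under anti-miR-182 and 6.91, 7.15 and 7.07 under placebo. Every day 7 value lay above every day 2 value, and placebo day 7 replicate 2 was highest by a wide margin. The difference between the days was 0.29 ± 0.19 under anti-miR-182 (SE, n = 3 per group, adjusted p = 0.264 in limma) and 0.62 ± 0.19 in placebo (adjusted p = 0.0281).

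C1qc behaved alike, with 7.29, 7.33 and 7.25 under anti-miR-182 and 7.08, 7.92 and 7.23 under placebo at day 7. At day 2 C1qc had 7.06, 6.81 and 6.62 under anti-miR-182 and 6.50, 6.89 and 6.73 under placebo, below all day 7 values. Its day difference was 0.46 ± 0.19 under anti-miR-182 (adjusted p = 0.0828 in limma) and 0.71 ± 0.19 in placebo (adjusted p = 0.0148). C1qb, the third chain, did not pass in either arm (0.20 ± 0.21 under anti-miR-182 and 0.32 ± 0.21 in placebo), and without placebo day 7 replicate 2 and anti-miR-182 day 2 replicate 3 its placebo difference was -0.00. The placebo call of C1qa ended without placebo day 2 replicate 1 (adjusted p = 0.0951), replicate 2 (0.0511) or replicate 3 (0.0649), and without placebo day 7 replicate 2, where the difference was 0.34 (0.0932). The call of C1qc ended without placebo day 2 replicate 1 (0.60, adjusted p = 0.0643), and without placebo day 7 replicate 2 the difference was 0.45 (adjusted p = 0.0487). Under anti-miR-182 C1qc passed with quantile normalization (0.0268), array centring (0.0343) or without placebo day 7 replicate 2 (0.0249).

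The promoters of C1qa and C1qb are shown because the C1q chains lie within 17.7 kb on chromosome 5 and were all highest in placebo day 7 replicate 2. C1qc lies between these genes, and no promoter was matched for it. Each sequence shown is the 250 bases before the start on the minus strand in RefSeq (GRCr8), at chr5:154419934-154420183 for C1qa and chr5:154407828-154408077 for C1qb. Capitals mark the STAT letters TTCNNNGAA in C1qa and the letters GAGGAA, a core that PU.1 binds, on either strand in C1qb.
C1qa: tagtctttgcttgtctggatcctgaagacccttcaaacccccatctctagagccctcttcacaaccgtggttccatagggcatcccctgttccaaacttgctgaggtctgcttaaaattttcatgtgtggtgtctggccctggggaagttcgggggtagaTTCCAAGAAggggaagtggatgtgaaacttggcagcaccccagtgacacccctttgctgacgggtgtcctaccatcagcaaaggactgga
C1qb: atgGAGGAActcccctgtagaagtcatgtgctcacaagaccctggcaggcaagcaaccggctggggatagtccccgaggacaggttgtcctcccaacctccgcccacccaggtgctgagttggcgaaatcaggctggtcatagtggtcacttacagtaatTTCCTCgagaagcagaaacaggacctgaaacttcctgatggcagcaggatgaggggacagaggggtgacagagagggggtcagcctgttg

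Promoters were matched for 17 of 25 members, and motifs were searched on both strands in 300 bases, 50 of them past the start. TTCNNNGAA stood in 3 of 17 (C1qa, C8a and Vsig4) against 8.87% of 33469 promoters, and the NF-kB letters GGANNTTCC in 2 (C1qa and C1qb) against 4.09%. GAGGAA stood in 4 (C1qb, C1r, Cfp and Mbl1) against 27.6%, and the C/EBP letters TTGCNNAA in 5 (C1r, C3, C6, C8a and C8b) against 10.6%. The match of GGANNTTCC in C1qa begins 3 bases before the start, with the last letters shown, and that in C1qb lies past the start, outside the bases shown; the last letters of this motif are those with which GAGGAA begins on the other strand. These are matches of letters, not bound sites.

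C1s, the protease that cleaves C4 and C2, had 8.82, 8.59 and 8.74 in anti-miR-182 kidneys and 8.98, 9.27 and 8.74 in placebo kidneys at day 7. At day 2 C1s had 9.12, 8.74 and 8.82 under anti-miR-182 and 8.44, 8.49 and 8.75 under placebo. Placebo lay high at day 7 and low at day 2 except for 1 array of each day, and anti-miR-182 overlapped both. The day difference was -0.18 ± 0.15 under anti-miR-182 (adjusted p = 0.388 in limma) and 0.44 ± 0.15 in placebo (0.0429). The placebo call ended in 6 of 12 fits with 1 array left out, those without placebo day 2 replicate 1 or 2, placebo day 7 replicate 1 or 2, or anti-miR-182 day 7 replicate 1 or 3 (adjusted p = 0.0519 to 0.165). The treatment difference of C1s changed by -0.62 ± 0.21 between the days (unadjusted p = 0.0113, adjusted p = 0.9995).

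C1r, which activates C1s, had 6.82, 6.74 and 6.94 in anti-miR-182 kidneys and 7.28, 7.41 and 6.96 in placebo kidneys at day 7. All anti-miR-182 values lay below all placebo values, the nearest by little, and the difference was -0.38 ± 0.16 (unadjusted p = 0.0284, adjusted p = 0.999 in limma). At day 2 C1r had 7.36, 6.76 and 6.99 under anti-miR-182 and 7.18, 7.01 and 7.24 under placebo, which overlapped. At day 7 all 5 classical genes had negative treatment differences, from -0.12 ± 0.19 (C1qc) to -0.38 (C1r), and 0 passed. Without placebo day 7 replicate 2 the C1q differences were -0.03 (C1qa), 0.03 (C1qb) and 0.13 (C1qc), and those of C1r and C1s were -0.28 and -0.14.

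Markers of macrophages were read beside these genes. The mean log2 signal of 10 macrophage markers was 7.54, 7.67 and 7.67 in anti-miR-182 kidneys and 7.43, 8.51 and 7.77 in placebo kidneys at day 7, and 7.29 to 7.48 and 7.28 to 7.39 at day 2. Placebo day 7 replicate 2 was the highest, as in C1q, and Cd163, a scavenger receptor of macrophages named after its values were seen, read 7.35 there against 4.50 to 5.22 on the other 11 arrays. Of the 10 markers 8 had negative treatment differences at day 7 with that array included, and 0 passed. The other placebo arrays of day 7 (7.43 and 7.77) lay on either side of the anti-miR-182 arrays (7.54 to 7.67). From day 2 to day 7, 2 of the 10 rose and 1 fell under anti-miR-182 (2.68% of all genes rose and 24.9% fell). In placebo 2 rose and 0 fell (4.22% and 23.7% of all genes). Adgre1 (F4/80) was among the rises, by 0.66 ± 0.21 under anti-miR-182 and 1.39 ± 0.21 in placebo. The fall was that of Msr1, from a mean of 8.44 at day 2 to 7.71 at day 7.

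Only the C1q chains were set against these markers. Over the 6 arrays of day 7 the mean of C1qa, C1qb and C1qc went with the macrophage mean (Pearson r = 0.995, exact permutation p = 0.00278, adjusted over 8 relations 0.0222; Spearman rho = 0.943, p = 0.0167, adjusted 0.134). Without the 2 arrays farthest from the median marker level r was 0.858. At day 2 r was 0.106 (exact permutation p = 0.818) and rho -0.257 (0.658). The mean of the fibroblast markers at day 7 was 7.68 to 7.7 under anti-miR-182 and 7.94, 8.76 and 7.95 under placebo. It was highest on the same placebo array, and the arms did not overlap with or without that array. At day 7 8 of 8 had negative treatment differences, 0 of which passed. The mean of C1r, C1s and Serping1 had r = 0.915 with them at day 7 (exact permutation p = 0.0319, adjusted 0.0638; rho = 0.6, p = 0.242), and 0.645 without the 2 farthest arrays, and at day 2 r = 0.571 (p = 0.24), and 0.932 without the 2 farthest arrays. The part of these cells in the complement values was not tested.

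**Figure D3:**
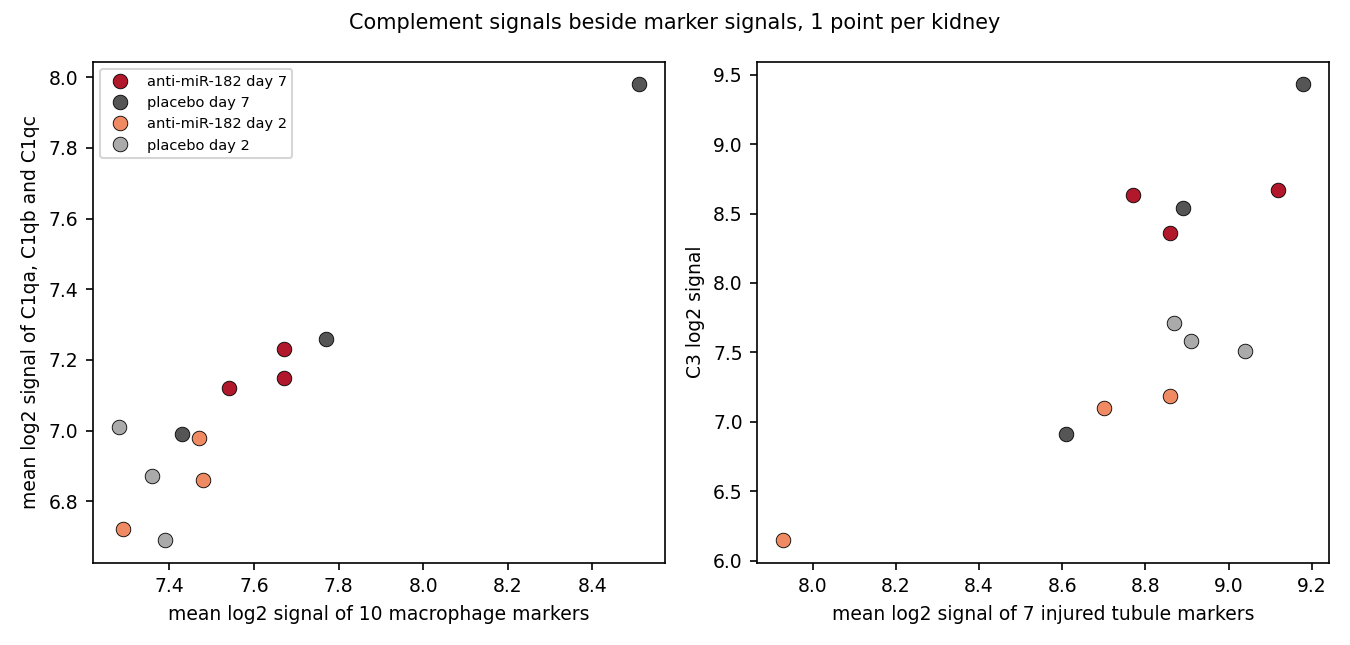
Left, mean log2 signal of C1qa, C1qb and C1qc against the mean of 10 macrophage markers; right, C3 against 7 injured tubule markers; each point is 1 kidney, coloured by group. Placebo day 7 replicate 2 is the point at the upper right of both panels (8.51 macrophage mean, 9.43 C3), and anti-miR-182 day 2 replicate 3 the lowest C3 point (6.15).

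The lectin route had all 4 listed genes. Its proteases are Masp1 and Masp2, and its lectins Mbl1 and Mbl2 encode the rodent mannose-binding lectins A and C. Masp2, which cleaves C4 and C2, fell with day in both arms, and Mbl1 fell under anti-miR-182. Masp2 had 6.04, 6.31 and 6.16 in anti-miR-182 kidneys and 6.03, 6.15 and 6.06 in placebo kidneys at day 7. At day 2 Masp2 had 6.69, 6.39 and 6.56 under anti-miR-182 and 6.67, 6.51 and 6.69 under placebo, all above every day 7 value. The difference was -0.38 ± 0.12 under anti-miR-182 (adjusted p = 0.0278 in limma) and -0.54 ± 0.12 in placebo (adjusted p = 0.00464). The anti-miR-182 call ended without anti-miR-182 day 2 replicate 1 (adjusted p = 0.0789) or 3 (0.0507), without day 7 replicate 1 (0.108) or 3 (0.071), and under quantile normalization (0.241) and array centring (0.285).

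Mbl1 had 6.54, 6.83 and 6.58 under anti-miR-182 and 6.79, 6.63 and 6.50 under placebo at day 7. At day 2 Mbl1 had 7.55, 7.02 and 7.97 under anti-miR-182 and 7.19, 6.91 and 6.86 under placebo. The highest 2 values were anti-miR-182 day 2 arrays, and the third of that group lay within the placebo range. Its day difference was -0.86 ± 0.19 under anti-miR-182 (adjusted p = 0.00607 in limma) and -0.35 ± 0.19 in placebo (adjusted p = 0.186), and the anti-miR-182 call held in all 12 fits with 1 array left out and under both scalings (-0.67 and -0.68). At day 2 the treatment difference of 0.53 ± 0.19 had the smallest unadjusted p of the members (0.0156, adjusted p = 0.718) and was 0.30 without anti-miR-182 day 2 replicate 3. Mbl2 (4.74 to 5.46) and Masp1 (5.78 to 6.57) overlapped in all groups and did not pass in any comparison.

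C3, the component on which all routes converge, was the member with the largest rise; with it, all 4 listed genes of C3 and the alternative route had a row. C3 had 8.63, 8.36 and 8.67 in anti-miR-182 kidneys and 6.91, 9.43 and 8.54 in placebo kidneys at day 7. At day 2 C3 had 7.10, 7.19 and 6.15 under anti-miR-182 and 7.71, 7.58 and 7.51 under placebo. Under anti-miR-182 the days were far apart, while placebo at day 7 spanned the widest range of any group, reaching both below and above its day 2 values. The day difference was 1.74 ± 0.45 under anti-miR-182 (3.33-fold, adjusted p = 0.0124 in limma) and 0.69 ± 0.45 in placebo (adjusted p = 0.257). Under anti-miR-182 the call held in all 12 fits with 1 array left out, and it was 1.41 without both arrays that stand apart. Without placebo day 7 replicate 1 the placebo difference was 1.38 and passed (adjusted p = 0.00672), and without both arrays that stand apart it was 0.12. Of the 8 injured tubule markers 2 rose under anti-miR-182 (2.68% of all genes rose) and 0 passed in placebo (28% of all genes passed). Among the rises was Lcn2, a lipocalin that injured tubules release (4.01-fold, adjusted p = 0.0165 in limma). The size of the Lcn2 rise leaned on anti-miR-182 day 2 replicate 3. Lcn2 had 9.9, 9.95 and 7.33 at day 2 and 11.03, 10.9 and 11.26 at day 7 in that arm. For C3 the difference between the arms was 1.05 ± 0.63 (unadjusted p = 0.119, adjusted p = 0.9995 in limma).

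The promoter of C3 is shown as that of the gene with the largest rise, 250 bases before the start on the minus strand (RefSeq, GRCr8, chr9:2201340-2201589), with the C/EBP letters TTGCNNAA in capitals.
C3: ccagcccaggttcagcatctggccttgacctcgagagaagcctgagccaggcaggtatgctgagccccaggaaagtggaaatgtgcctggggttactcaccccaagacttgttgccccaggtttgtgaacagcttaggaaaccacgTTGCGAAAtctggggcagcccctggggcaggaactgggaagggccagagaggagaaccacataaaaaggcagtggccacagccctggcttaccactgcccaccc

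At day 2 C3 was lower on all 3 anti-miR-182 arrays than on all 3 placebo arrays, by -0.78 ± 0.45 (unadjusted p = 0.1, adjusted p = 0.765 in limma). Anti-miR-182 day 2 replicate 3 was the lowest, and without it the difference was -0.45. The same array was lowest in Lcn2 (7.33, against 9.90 to 10.4 on the other day 2 arrays). The mean of the 8 injured tubule markers was 8.06 to 9.06 under anti-miR-182 and 9.11 to 9.28 under placebo at day 2. Of these markers 7 of 8 had negative differences with replicate 3 included, and 0 passed. The other anti-miR-182 arrays of day 2 had marker means of 8.99 and 9.06, and the count was not taken on them alone. At day 7 C3 differed by 0.26 ± 0.45 between treatments, 0.83 without placebo day 7 replicate 2 and -0.43 without replicate 1. Over the 6 arrays of a day C3 and the injured tubule mean (7 markers, without Clu) had r = 0.853 at day 7 (exact permutation p = 0.0181, adjusted 0.0638; rho = 0.829, p = 0.0583) and r = 0.945 at day 2 (p = 0.0264, adjusted 0.0638; rho = 0.771, p = 0.103). Without the 2 arrays farthest in the marker mean r was 0.417 and 0.705. Both arms are pooled in these relations. At day 2 the mean of the 7 markers was 7.93 to 8.86 under anti-miR-182 and 8.87 to 9.04 under placebo, so it was lower in the same arm as C3. The part of the arms in r was not tested. The part of tubular injury in the C3 values was not tested.

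The alternative route genes were Cfb (factor B, the protease of its convertase), Cfd (factor D or adipsin, which cleaves factor B and is made by fat) and Cfp (properdin, which steadies the convertase). Cfp had 7.38, 7.32 and 7.26 in anti-miR-182 kidneys and 7.11, 7.81 and 7.47 in placebo kidneys at day 7. At day 2 Cfp had 7.18, 6.95 and 6.78 under anti-miR-182 and 7.03, 7.0 and 6.92 under placebo. The days did not overlap within either arm, and the treatments overlapped on both days. Its day difference was 0.35 ± 0.16 under anti-miR-182 (adjusted p = 0.104 in limma) and 0.48 ± 0.16 in placebo (adjusted p = 0.0351). The placebo call ended without any 1 placebo array of day 2 or without placebo day 7 replicate 2 or 3 (adjusted p = 0.0711 to 0.144), with 0.30 without day 7 replicate 2. Under anti-miR-182 Cfp passed with quantile normalization (0.0231) and array centring (0.027).

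Cfd had 5.05, 5.66 and 5.30 under anti-miR-182 and 5.42, 6.82 and 5.70 under placebo at day 7. At day 2 Cfd had 5.38 to 5.49 under anti-miR-182 and 5.23 to 5.46 under placebo, a narrow band that the other day 7 arrays surround, while placebo day 7 replicate 2 stands alone above. The treatment difference at day 7 was -0.64 ± 0.27 (unadjusted p = 0.0304, adjusted p = 0.999 in limma), and -0.22 without that array. In placebo the day difference of 0.62 ± 0.27 did not pass (adjusted p = 0.0935), passed without placebo day 7 replicate 1 (0.90, 0.0259), and was 0.20 without both arrays that stand apart. The fat markers, 6 of 6 with a row, did not follow Cfd at day 7 (r = -0.3, exact permutation p = 0.665; rho = -0.429, p = 0.419), and their mean was 6.57 to 6.77 under anti-miR-182 and 6.50 to 6.79 under placebo. Cfb ranged from 5.78 to 6.23 over all arrays, with a day difference of 0.04 ± 0.11 under anti-miR-182 and 0.27 ± 0.11 in placebo (adjusted p = 0.0737). In placebo Cfb passed with quantile normalization (0.0308), array centring (0.0179) and array weights (0.0346).

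**Figure D4:**
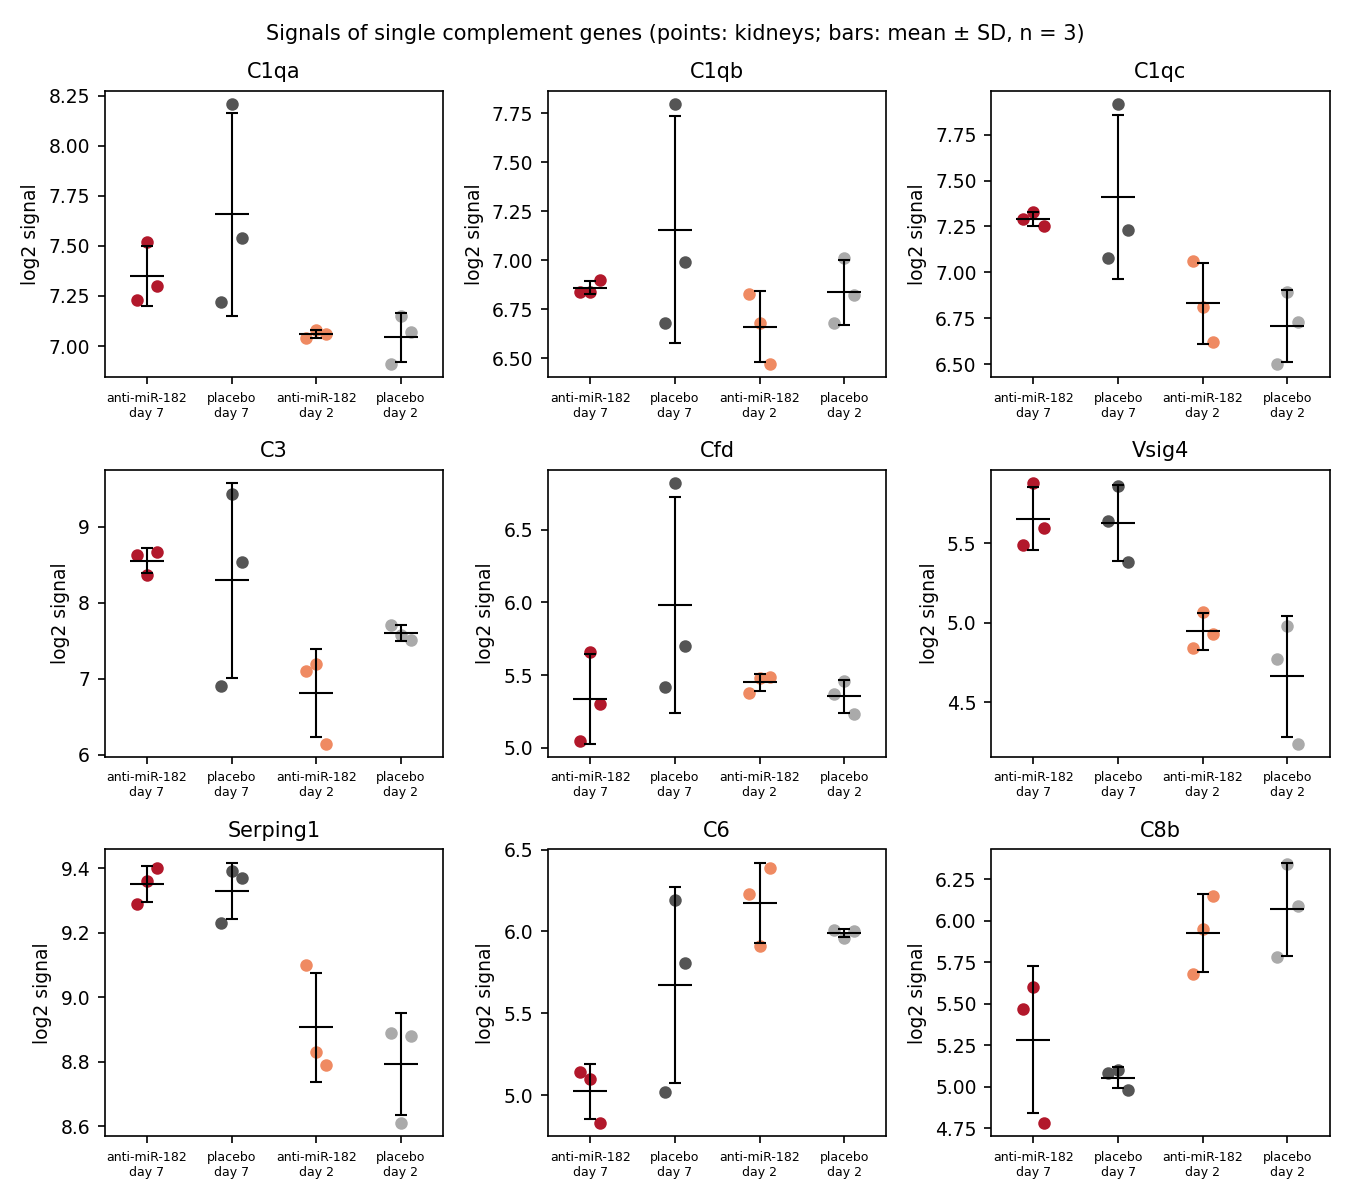
Log2 signal of 9 complement genes in the 4 groups, anti-miR-182 left of placebo within each day and day 7 left of day 2; points are kidneys, bars the mean ± SD (n = 3). Vsig4 and Serping1 stand higher at day 7 in both arms and C8b lower, while placebo at day 7 is spread widely for C3 (6.91 to 9.43), Cfd (5.42 to 6.82) and C6 (5.02 to 6.19).

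All 7 listed genes of the terminal pathway had a row, and those that passed fell from day 2 to day 7. C8a and C8b, subunits of the complex that first inserts into the membrane, and C9, which forms the ring of the pore, fell in both arms, and C6, which binds C5b, fell under anti-miR-182. C8a had 4.61, 4.66 and 4.65 in anti-miR-182 kidneys and 4.87, 4.75 and 4.79 in placebo kidneys at day 7. At day 2 C8a had 5.25, 5.21 and 5.33 under anti-miR-182 and 5.12, 5.19 and 5.24 under placebo. Replicates lay close together and the days were far apart, and at day 7 anti-miR-182 lay wholly below placebo (-0.16 ± 0.096, adjusted p = 0.999 in limma). The day difference was -0.62 ± 0.096 under anti-miR-182 (adjusted p = 0.000862) and -0.38 ± 0.096 in placebo (adjusted p = 0.0109), and both held in all 12 fits with 1 array left out. Array centring ended the placebo call (-0.23, adjusted p = 0.139).

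C8b had 5.47, 5.60 and 4.78 under anti-miR-182 and 5.08, 5.10 and 4.98 under placebo at day 7. At day 2 C8b had 5.68, 5.95 and 6.15 under anti-miR-182 and 5.78, 6.34 and 6.09 under placebo, above every day 7 array. It fell by 0.65 ± 0.20 under anti-miR-182 (adjusted p = 0.0288 in limma) and by 1.02 ± 0.20 in placebo (adjusted p = 0.00313). The placebo call held in all 12 fits with 1 array left out and under both scalings. The anti-miR-182 call ended without anti-miR-182 day 2 replicate 2 (0.0787) or 3 (0.0876), without day 7 replicate 3 (-0.39), and under quantile normalization (0.134) and array centring.

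C6 had 5.14, 5.10 and 4.83 under anti-miR-182 and 5.02, 6.19 and 5.81 under placebo at day 7. At day 2 C6 had 6.23, 5.91 and 6.39 under anti-miR-182 and 6.01, 5.96 and 6.0 under placebo. Placebo at day 7 was split, with replicate 1 among the anti-miR-182 values and the other 2 near the day 2 values. The day difference was -1.16 ± 0.22 under anti-miR-182 (adjusted p = 0.00289 in limma, held in all 12 fits with 1 array left out and under both scalings) and -0.31 ± 0.22 in placebo (adjusted p = 0.311). At day 7 C6 had the smallest unadjusted p of the members between treatments (-0.66 ± 0.22, unadjusted p = 0.011, adjusted p = 0.999), and the difference was -0.40 without placebo day 7 replicate 2 and -0.98 without replicate 1. The difference between the arms was -0.85 ± 0.32 (unadjusted p = 0.0179, adjusted p = 0.9995), and -0.48 without both arrays that stand apart.

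C9 ran from 3.91 to 4.49 under anti-miR-182 and from 3.84 to 4.17 under placebo at day 7, and from 4.57 to 4.84 and from 4.43 to 4.63 at day 2, so that the days did not overlap within an arm. It fell by 0.45 ± 0.15 under anti-miR-182 (adjusted p = 0.0382 in limma) and by 0.51 ± 0.15 in placebo (adjusted p = 0.0212). The placebo call ended without placebo day 2 replicate 1 or 2 or day 7 replicate 3 (adjusted p = 0.0612 to 0.0797) and under array centring (0.0885). The anti-miR-182 call ended without anti-miR-182 day 2 replicate 1 or 2, placebo day 2 replicate 2, or anti-miR-182 day 7 replicate 1 or 3 (-0.29), and under both scalings. C8a, C9, Vsig4 and Mbl2 lie in the 25% of genes with the lowest mean signal, where the median gene moved by -0.17 under anti-miR-182 and -0.09 in placebo.

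C5, which is split into the attractant C5a and the seed of the pore, C7, which anchors that seed in the membrane, and C8g, the light subunit of C8, did not pass on the deposited scale. C5 had 9.70, 9.68 and 9.90 under anti-miR-182 and 9.20, 9.84 and 9.34 under placebo at day 7. At day 2 C5 had 8.74, 9.38 and 9.85 under anti-miR-182 and 9.27, 9.46 and 9.45 under placebo, and anti-miR-182 at day 2 had the widest range. Its day difference under anti-miR-182 was 0.44 ± 0.23 (adjusted p = 0.159 in limma), and it passed without anti-miR-182 day 2 replicate 3 (0.70, 0.0253) and with quantile normalization (0.0186). C7 ranged from 10.59 to 11.41 and differed between the days by -0.10 ± 0.16 under anti-miR-182 and by 0.37 ± 0.16 in placebo. The placebo value (adjusted p = 0.0974) passed with quantile normalization (0.0129) and array centring (0.0455). C8g ranged from 6.61 to 6.97.

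Masp2, Mbl1, C6, C8a, C8b and C9, the members that fell under anti-miR-182, are known chiefly as liver products. These 6 of 25 are near the 24.9% of all genes that fell, so they are given as a description. Under quantile normalization or array centring only Mbl1, C6 and C8a fell past the threshold. Among the other soluble members, C3 and Serping1 rose in that arm. C1qa, C1qb, C1qc, C1r, C1s, Masp1, Mbl2, Cfb, Cfd, Cfp, C5, C7 and C8g did not pass there on the deposited scale. In each arm 4 of 5 liver markers were lower at day 7 and 1 was higher. The mean of 5 liver markers was 4.97 to 5.11 under anti-miR-182 and 4.94 to 5.05 under placebo at day 7, and 5.51 to 5.65 and 5.41 to 5.52 at day 2. Of these 5, 3 fell past the threshold under anti-miR-182 (24.9% of all genes fell) and 4 in placebo (23.7% of all genes). Alb (albumin) lay between 4.37 and 5.10 on all arrays. Falls past the threshold varied among the other marker lists. Of 6 proximal tubule markers 2 fell under anti-miR-182 and 4 in placebo, and 2 of 2 podocyte markers with a row fell in both arms. Of 7 neutrophil markers 2 fell in each arm. Distal nephron (5), endothelial (3) and macrophage (10) markers each had 1 fall under anti-miR-182 and 0 in placebo. Fibroblast (8), fat (6) and injured tubule (8) markers had 0 falls in either arm. The part of liver-type transcripts or of dim signal in these falls was not tested.

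The receptors were C3ar1, for the fragment C3a, and Vsig4, by which tissue macrophages bind C3b-coated particles. Vsig4 rose in both arms. At day 7 Vsig4 had 5.49, 5.88 and 5.60 in anti-miR-182 kidneys and 5.64, 5.86 and 5.38 in placebo kidneys. At day 2 Vsig4 had 4.84, 5.07 and 4.93 under anti-miR-182 and 4.77, 4.98 and 4.24 under placebo. All 6 day 7 values lay above all 6 day 2 values, and the treatments overlapped on both days. The day difference was 0.72 ± 0.18 under anti-miR-182 (adjusted p = 0.0112 in limma) and 0.96 ± 0.18 in placebo (adjusted p = 0.00234), and it held in all 12 fits with 1 array left out, under both scalings and without both arrays that stand apart (0.71 and 0.85). C3ar1 ranged from 7.03 to 7.52 and did not pass in any comparison.

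The promoter of Vsig4 is shown because the gene rose in both arms, 250 bases before the start on the minus strand (RefSeq, GRCr8, chrX:65179709-65179958), with the STAT letters TTCNNNGAA in capitals near the start.
Vsig4: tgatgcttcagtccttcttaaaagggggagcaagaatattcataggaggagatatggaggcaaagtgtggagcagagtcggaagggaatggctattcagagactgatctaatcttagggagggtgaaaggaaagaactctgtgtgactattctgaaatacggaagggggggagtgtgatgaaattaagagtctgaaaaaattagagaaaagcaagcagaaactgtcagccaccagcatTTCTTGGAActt

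Of the 5 listed regulators 3 had a row. Serping1, the C1 inhibitor that blocks C1r, C1s and the lectin proteases, rose in both arms. At day 7 Serping1 had 9.29, 9.36 and 9.40 in anti-miR-182 kidneys and 9.23, 9.39 and 9.37 in placebo kidneys. At day 2 Serping1 had 9.10, 8.83 and 8.79 under anti-miR-182 and 8.89, 8.61 and 8.88 under placebo. The days did not overlap, the treatments overlapped, and replicates at day 7 were close. It rose by 0.44 ± 0.12 under anti-miR-182 (adjusted p = 0.0153 in limma) and by 0.54 ± 0.12 in placebo (adjusted p = 0.00585). The placebo call held in all 12 fits with 1 array left out; the anti-miR-182 call ended without anti-miR-182 day 2 replicate 2 (0.0556) or day 7 replicate 3 (0.0502).

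Cd55, decay-accelerating factor, which breaks up C3 convertases on host cells, fell in placebo. At day 7 Cd55 had 6.93, 7.45 and 7.57 under anti-miR-182 and 6.88, 7.18 and 7.26 under placebo. At day 2 Cd55 had 7.33, 7.82 and 7.61 under anti-miR-182 and 7.72, 7.73 and 7.92 under placebo. In placebo the days were apart, and under anti-miR-182 they overlapped. The difference was -0.27 ± 0.17 under anti-miR-182 (adjusted p = 0.258 in limma) and -0.68 ± 0.17 in placebo (adjusted p = 0.0113), which held in all 12 fits with 1 array left out and ended under quantile normalization (-0.44, 0.0784).

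Cd46, membrane cofactor protein, a helper in cleaving C3b that is known in rodents mainly from the testis, had 5.96, 6.20 and 6.32 under anti-miR-182 and 6.18, 6.29 and 6.33 under placebo at day 7. At day 2 Cd46 had 6.27, 5.95 and 6.23 under anti-miR-182 and 5.65, 5.73 and 6.13 under placebo. Only the placebo arrays of the 2 days were apart. The day difference was 0.01 ± 0.14 under anti-miR-182 (adjusted p = 0.959 in limma) and 0.43 ± 0.14 in placebo (adjusted p = 0.0403), and the call ended without placebo day 2 replicate 1 or 2 or without any 1 placebo array of day 7 (adjusted p = 0.059 to 0.153). At day 2 the treatment difference was 0.31 ± 0.14 (unadjusted p = 0.0498, adjusted p = 0.753).

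**Figure D5:**
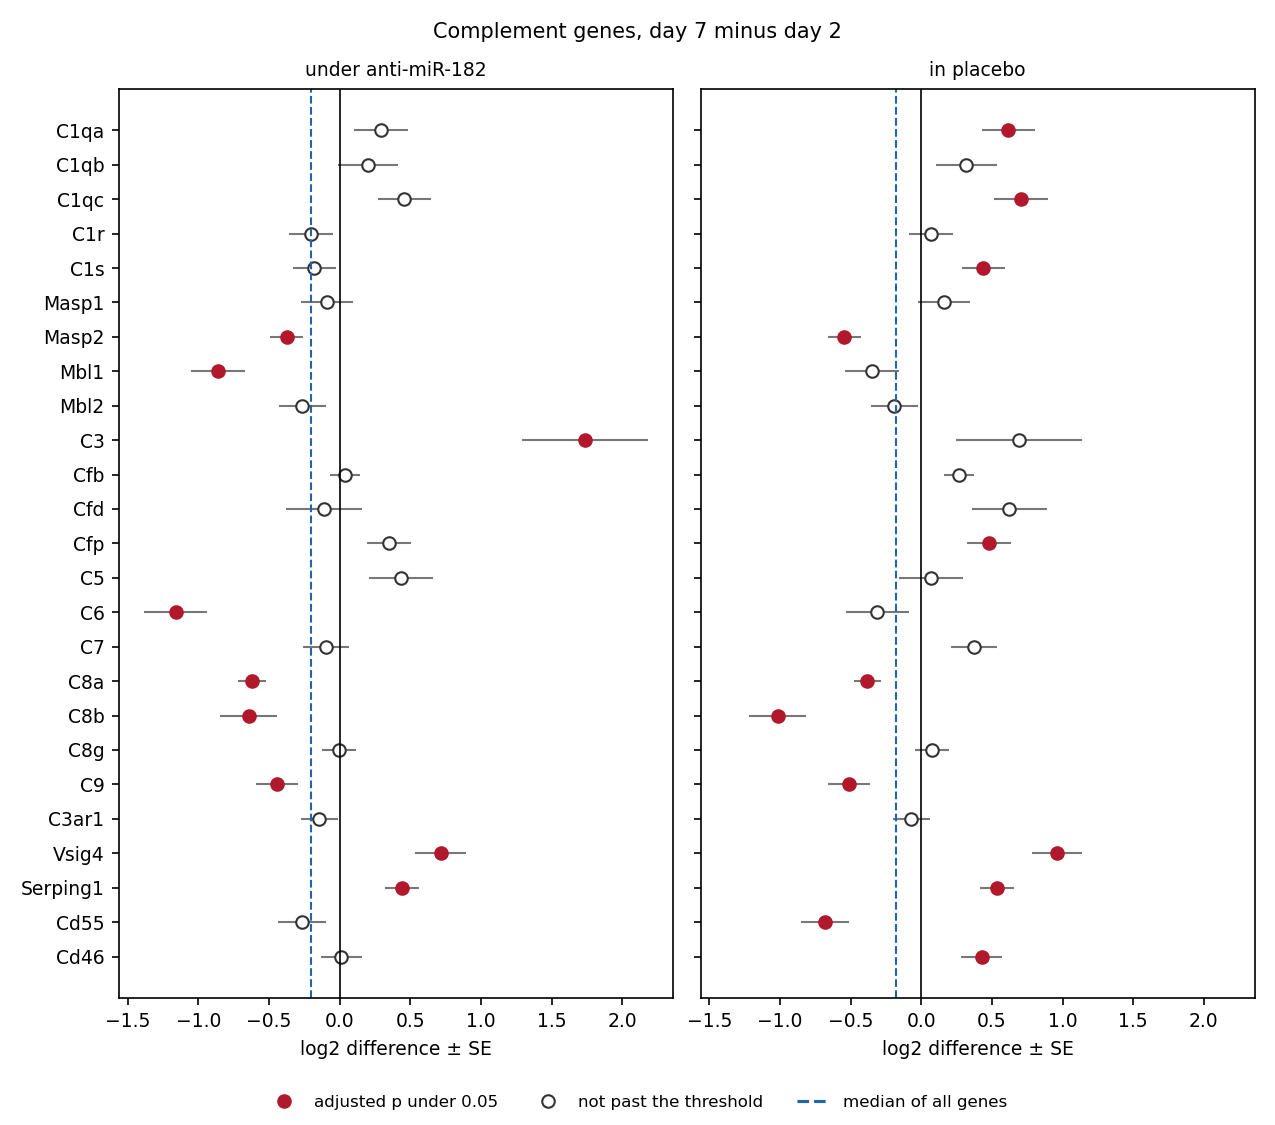
Log2 difference, day 7 minus day 2, of 25 complement genes under anti-miR-182 (left) and in placebo (right), as points with SE bars; filled points passed an adjusted p under 0.05 and the dashed line is the median of all genes (-0.21 and -0.18). C3 (1.74) lies farthest up under anti-miR-182 and Vsig4 (0.96) in placebo, while C6 (-1.16) and C8b (-1.02) lie farthest down.

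Other genes of the complement pathway, 27 with a row, were read from the same fit. From day 2 to day 7, 2 rose and 5 fell under anti-miR-182 (median -0.11), and 4 rose and 4 fell in placebo (median -0.05). These are 25.9% and 29.6% of the 27, near the 27.5% and 28% of all genes, so the genes that follow are given as a description. Vtn, vitronectin, which keeps the terminal complex out of membranes, rose by 0.76 ± 0.20 and 0.88 ± 0.20, and Colec12, a collectin of endothelium, rose by 0.59 ± 0.16 and 0.78 ± 0.16. In placebo Cd93 (0.52) and Itgam (0.47), the alpha chain of complement receptor 3, also rose. Cr2, the receptor for C3d on B cells, fell by 1.02 ± 0.12 under anti-miR-182 and by 1.01 ± 0.12 in placebo. The Cr2 row was dim, with group means of 3.87 to 4.94, between the 7.61 and 15.8 percentiles of all genes. Csmd1, a membrane regulator, fell by 0.85 ± 0.17 and 1.33 ± 0.17. C1rl, a relative of C1r, fell by 0.73 and 0.63. Under anti-miR-182 Itgax (-0.65) and Colec11 (-0.38, named after its value was seen) also fell, and in placebo C1qbp (-0.57).

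Of these calls, Cr2 and Csmd1 in both arms and Vtn, Colec12 and C1qbp in placebo held in all 12 fits with 1 array left out, as did C1rl under anti-miR-182. Vtn (adjusted p = 0.0558) and Colec12 (0.0814) under anti-miR-182 ended without anti-miR-182 day 7 replicate 3. Colec11 ended without anti-miR-182 day 2 replicate 1 (0.0522) or day 7 replicate 2 (0.0524) or 3 (0.0726), and Itgax without anti-miR-182 day 2 replicate 1 (0.0623) or 2 (0.0727) or day 7 replicate 3 (0.0682). In placebo C1rl ended without placebo day 2 replicate 1 (0.0656) or 3 (0.0585) or day 7 replicate 3 (0.0736), and Cd93 without placebo day 2 replicate 2 (0.138) or 3 (0.08) or day 7 replicate 1 (0.106) or 2 (0.0801). Itgam ended in 7 of 12 such fits, without any 1 placebo array of day 2, placebo day 7 replicate 2 (0.25, adjusted p = 0.192), anti-miR-182 day 2 replicate 2 or anti-miR-182 day 7 replicate 1 or 2. Quantile normalization ended the calls of C1qbp (0.139), C1rl, Colec11 and Itgax.

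Between treatments 0 of 27 passed in any comparison. At day 7 the smallest unadjusted p values were those of the ficolin Fcna (-0.49 ± 0.17, unadjusted p = 0.0131), C4bpb, a chain of the C4b-binding protein (0.31 ± 0.15, 0.0564), and the ficolin Fcnb (-0.66 ± 0.33, 0.0689), all with an adjusted p of 0.999 in limma. Without placebo day 7 replicate 2 these differences were -0.25 (Fcna), 0.15 (C4bpb) and -0.11 (Fcnb). At day 2 they were those of C1qbp, the mitochondrial protein that binds C1q heads (-0.30 ± 0.11, unadjusted p = 0.0143, adjusted p = 0.718), the collectin Colec10 (0.23 ± 0.12, 0.0806) and Clu, clusterin, an inhibitor of the terminal complex (-0.69 ± 0.40, 0.103), and without anti-miR-182 day 2 replicate 3 that of Clu was -0.13. Fcna had 6.29, 6.30 and 6.18 in anti-miR-182 kidneys and 6.38, 7.23 and 6.62 in placebo kidneys at day 7, and placebo day 7 replicate 2 was again the highest. In the mean of both days the smallest unadjusted p values belonged to C1qbp (-0.16), Itgb2 (-0.23, and -0.01 without both arrays that stand apart), the beta chain of complement receptor 3, and Apcs (0.41, and 0.20 without anti-miR-182 day 2 replicate 3), serum amyloid P, and in the difference between the days Fcna (-0.63, and -0.38 without placebo day 7 replicate 2), Colec10 (-0.35) and Csmd1 (0.48).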

How the data were processed

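Kidney RNA of 12 rats was measured on whole-transcript arrays, 3 per group. The authors deposited log2 signals, made with RMA per the submitters' processing notes; its version, the array design's build and the normalization run of each day are not stated in the sources used here, and 190 rows have no value on the day 2 arrays. The table has 36685 rows, of which 18511 carry 1 gene symbol, 575 carry several and 17599 are unnamed here; 18394 single symbols matched RefSeq. For genes with more than 1 row the brightest was used, giving 18166 genes. No array was left out.

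With limma 3.58.1 (R 4.3.3), 1 mean per group was fitted to the log2 values as deposited, with 6 contrasts, eBayes and Benjamini-Hochberg adjustment over all genes. Members, lists, named genes and tests were chosen with earlier results of these data known. Named are all members, of the other pathway genes up to 4 rises and 4 falls past the threshold by day and the 3 smallest p by treatment, and fixed markers. Relations with markers pooled both arms of a day and used exact permutation of pairings, two-sided. Alternatives are given at the end. In data simulated for the day 2 treatment comparison over 18166 genes, log2 differences of 1 were recovered in 88.8% of cases and of 0.5 in 11.5%. For the placebo day comparison the shares were 87.3% and 9.17%. The simulation changed far fewer genes than the 5080 called between the days in placebo, and the adjustment is stricter when few genes change. Its shares therefore do not give the recovery in the day comparisons. The number of arrays limits the precision.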

Additional observations from a re-analysis of the deposited data

How the results depend on the processing

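No paired analysis was made because each array has its own animal code and the labels name no pairs. Over 25 alternative settings, 0 of 2390 values of members between treatments passed, and 0 of 3560 member values in all comparisons turned direction where either value was called; 71 lost and 19 gained a call, all between days. The alternatives were each day alone, eBayes with a trend, robust eBayes, array weights, leaving out dim genes, quantile normalization, array centring, averaging rows of a gene, testing each row separately, other thresholds and each array left out; leaving out both arrays that stand apart was chosen after seeing the data.

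Members called by day under anti-miR-182 numbered 9, and 3 without the dimmest 50% of genes (which removes members from the test), 2 with a log2 difference of at least 1, and 5 to 10 with 1 array left out. In placebo they numbered 12, then 6, 1, and 6 to 12. All genes called by day under anti-miR-182 numbered 5002, and 2651 without the dimmest 50%, 2695 with quantile normalization, 2482 with array centring, 308 with a log2 difference of at least 1, and 3069 to 5072 with 1 array left out. In placebo they numbered 5080, then 3364, 2914, 3228, 385, and 3198 to 5773. Between treatments all genes called at day 2 numbered 0, and 1 with the day fitted alone, array weights or an adjusted p under 0.1, and 0 to 1 with 1 array left out. At day 7 the count was 0 to 3 and for the difference between days 0 to 1 with 1 array left out. For the mean of both days it was 1, 0 without the dimmest 25% or 50% of genes or both arrays that stand apart, and 0 to 4 with 1 array left out. Apart from the filters, which change the genes tested, and fits with fewer arrays, the cause of these changes was not tested.

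In simulated data with 3 arrays a group, 11.5% of log2 differences of 0.5 were recovered at day 2, which limits what the treatment comparisons show.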
